A study of Mus musculus with 9 samples.

Results

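Chemokine receptors steer a thymocyte from the cortex, where it is selected on self-peptide, into the medulla, where it is screened against tissue antigens, and then out of the thymus. They are G protein-coupled receptors that sense gradients of chemokines through inhibitory G proteins. Cxcr4 and Ccr9 are known for the cortical stages, Ccr4 and Ccr7 for entry into and residence in the medulla, and Ccr8, Cxcr3 and Cxcr5 mainly for positioning of later T cells.

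The genes described are 7 such receptors, Ccr4, Ccr7, Ccr8, Ccr9, Cxcr3, Cxcr4 and Cxcr5, chosen by name from a table of 41978 genes. All 7 have a row, and 6 passed the filter on low values used for testing, which Cxcr5 did not. The table holds bulk RNA-seq of 9 samples of semi-mature CD4 single-positive (SP4) thymocytes from mice that carry the Nur77-eGFP BAC transgene, in which GFP reports transcription of Nr4a1, an immediate early gene of antigen receptor signaling. Live CD25- CD69+ CD24+ CD4+ CD8- thymocytes were sorted, 10000 per sample, into the lowest, a medium and the highest 10% of the GFP distribution, here GFPlo, GFPmed and GFPhi, with 3 biological replicates each. All samples carry the transgene, no treatment is named, and the labels state neither age nor sex. The groups are therefore unmanipulated cells that differ in reporter level, and a gate on GFP does not fix how far a cell has matured.

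The study's main text and its methods differ on the CD24 gate, low in the former and high in the latter, and the labels give CD24+. Reads on genes ran from 7465552 to 14943774 per sample. Nr4a1 itself, the gene that the reporter follows, was at 187 to 251 TPM in GFPlo, 351 to 406 in GFPmed and 767 to 917 in GFPhi, in the order of the sort. The 9 markers listed for SP4 thymocytes, among them Cd4, Cd69 and Cd24a of the gate, summed to 8589 to 10235 TPM in GFPlo and 8555 to 10079 in GFPhi, and Cd4 was at 445 to 609 TPM in the 9 samples, so the markers of the labelled cell type were present in every group. TPM, transcript levels scaled to a common total per sample, are the deposited values. They were divided by the genomic span of each gene rather than by its exons, so they compare samples for a given gene and not genes with each other. Sums over a marker list weigh its genes unevenly and mostly follow those with the highest values.

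Ccr9 and Ccr4 fell as GFP rose, and they were the 2 members that were called. A call required a difference of at least 1 in log2(TPM + 1) and an adjusted p of at most 0.05 in limma with Benjamini-Hochberg adjustment over 30693 genes. Between GFPhi and GFPlo, 2 of the 6 members tested were called lower and 0 were called higher, against 0.404% of all genes tested called lower and 1.26% called higher. Between GFPhi and GFPmed the same members, Ccr9 and Ccr4, were called lower and 0 were called higher, against 0.15% and 0.541% of all genes. Between GFPmed and GFPlo 0 members were called in either direction, where 0.0554% of all genes were called higher and 0.00326% lower. At an unadjusted p under 0.05 limma had 4244 of the 30693 genes between GFPhi and GFPlo.

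**Figure D1:**
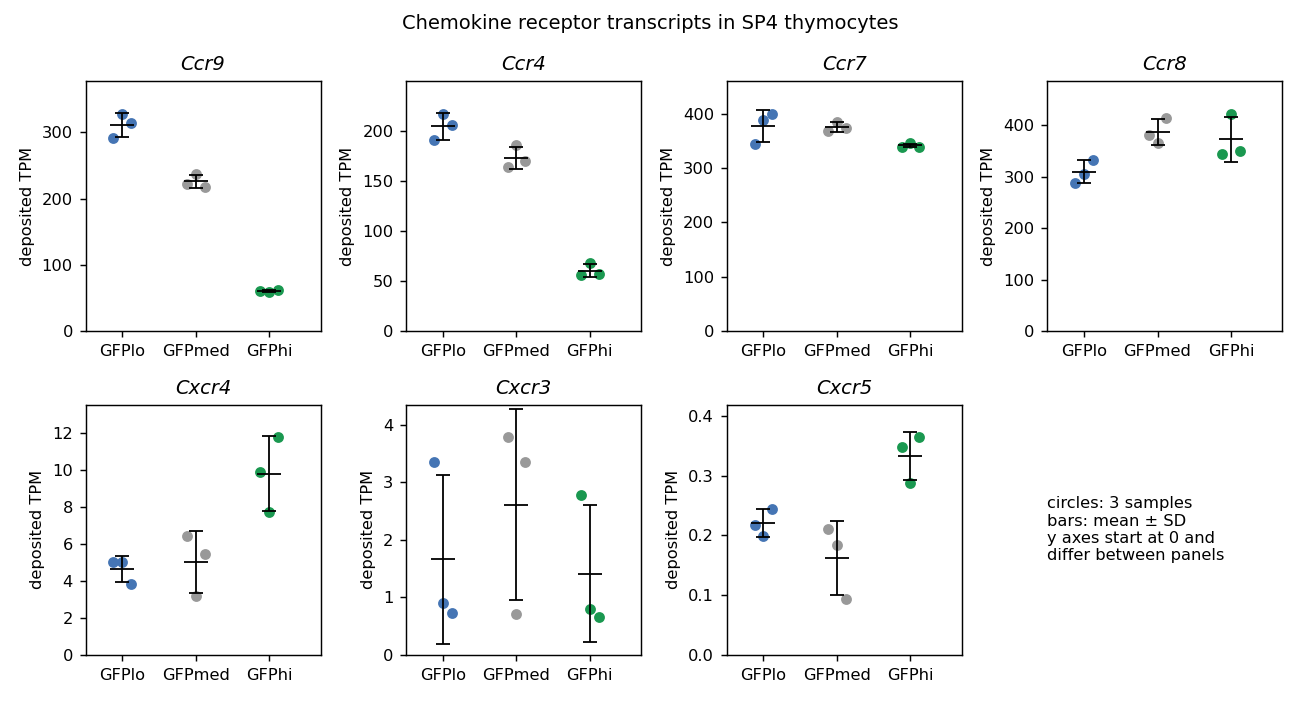
Deposited TPM (y axes, from 0, scale differing by panel) of the 7 receptors in the 3 GFP groups (x axes); circles are samples and bars the mean ± SD. Ccr9 and Ccr4 lie at 59.0 to 62.1 and 56.3 to 67.6 TPM in GFPhi, below every GFPlo and GFPmed sample, while Ccr7 stays between 339 and 400 TPM in all samples.

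Because Ccr9 and Ccr4 moved together, the bases just before their annotated starts are shown. They are the 250 bases upstream of the RefSeq transcript start on GRCm38.p6, read 5′ to 3′ on the gene's strand, at chr9:123766961-123767210 (plus strand) for Ccr9 and chr9:114496545-114496794 (minus strand) for Ccr4. Capitals mark matches to the short motifs described after them.
Ccr9: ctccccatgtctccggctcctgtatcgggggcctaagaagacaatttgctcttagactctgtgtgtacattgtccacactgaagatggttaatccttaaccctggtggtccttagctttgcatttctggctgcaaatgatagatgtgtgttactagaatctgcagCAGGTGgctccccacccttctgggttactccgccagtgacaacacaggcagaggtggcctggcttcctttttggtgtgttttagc
Ccr4: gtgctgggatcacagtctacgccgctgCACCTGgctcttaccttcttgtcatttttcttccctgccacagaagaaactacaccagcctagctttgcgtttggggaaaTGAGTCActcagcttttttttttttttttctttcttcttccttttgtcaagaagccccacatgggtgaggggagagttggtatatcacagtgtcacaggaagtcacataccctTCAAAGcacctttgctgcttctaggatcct

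Matches were sought on both strands to motifs chosen after the receptors' values were known. The NR4A monomer site AAAGGTCA, the element bound by Nr4a family monomers, had no match in either window and occurs in 1.34% of 32851 RefSeq windows of the same length. The EGR motif GCGTGGGCG also had no match (0.536% of windows). The E-box CAGNTG, which E proteins bind, matched once in each, starting 85 bases before the start of Ccr9 and 223 before that of Ccr4, and 44.8% of all windows hold it. Ccr4 alone of these genes also held the AP-1 motif TGANTCA 143 bases before its start (6.75% of windows) and the TCF/LEF motif CTTTGA, read on the opposite strand, 30 bases before it (13.8%). The windows of Ccr8 and Cxcr4 held none of these motifs and that of Cxcr3 held an E-box only. Ccr7 and Cxcr5 were not analysed here in this way. These matches describe letters and were not tested for binding.

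Ccr9 is the receptor for Ccl25, a chemokine of thymic epithelium, and its gene (ENSMUSG00000029530.16) lies at chr9:123678439-123784330 on the plus strand of GRCm38 in GENCODE. It was at 292, 328 and 314 TPM in the 3 GFPlo samples, 222, 237 and 218 in GFPmed, and 59.9, 59.0 and 62.1 in GFPhi. The 3 groups did not overlap. These values rest on 7787 to 15251 reads per sample in GFPlo and GFPmed and on 2843 to 3439 in GFPhi. The mean was 311 ± 18.1 TPM (SD, n = 3) in GFPlo and 60.4 ± 1.61 in GFPhi, a level 5.16-fold lower.

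On the log2(TPM + 1) scale Ccr9 differed by -2.35 between GFPhi and GFPlo (SE 0.06, 95% interval -2.49 to -2.20, limma adjusted p = 6.6e-06). Most of that difference lay between GFPmed and GFPhi, at -1.89 (SE 0.06, limma adjusted p = 8.5e-05). The GFPmed samples were 1.38-fold below GFPlo, at -0.46 on the log2 scale (95% interval -0.61 to -0.31), and did not pass the test (limma adjusted p = 0.098). Under the 22 alternatives that difference ran from -0.51 to -0.42 and its adjusted p from 1.7e-05 in limma-voom with library totals to 1.0 under median-of-ratios scaling. It was under 0.05 in that voom fit and, at 0.049, in limma on exonic-length TPM, with the fold under the limit for a call in every fit. Over the ordered groups its trend was -1.17 log2 units per step with an exact two-sided permutation p = 0.0012, the smallest that the 1680 arrangements of 9 samples allow. Among the 124 genes called lower in GFPhi than in GFPlo, Ccr9 had the 20th largest fall, and the 2nd largest of the 12 whose mean was at least 100 TPM.

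Reads from the Ccr9 locus are not its alone. In the annotation its exons share 1932 bases with AC165425.1 and 22 bases with Slc6a20a on the opposite strand, and 269 bases with Gm17200 on the same strand, and whether counting used strand is not stated in the sources used here. Of 14 tested genes within 250 kb of Ccr9, 0 were called higher and 3 lower between GFPhi and GFPlo, and all 3 overlap its span. Lztfl1, a regulator of ciliary traffic, is transcribed from the minus strand at chr9:123694416-123717697 inside the Ccr9 span and shares no exon with it. Lztfl1 was at 110, 121 and 113 TPM in GFPlo, 85.0, 88.6 and 81.5 in GFPmed and 40.5, 40.9 and 36.2 in GFPhi (-1.52 on the log2 scale, SE 0.07, limma adjusted p = 6.5e-05). Gm17200 and Gm17021, non-coding gene models, differed by -1.37 (SE 0.13) and -2.05 (SE 0.16) on the same scale. Gm17021 lies on the minus strand at chr9:123768114-123791289. Its name is not among the annotated genes that overlap Ccr9, and it appears to be AC165425.1 under its deposited symbol. How far shared reads contribute to these values was not tested.

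Ccr4, the receptor for Ccl17 and Ccl22, chemokines of medullary dendritic cells, is ENSMUSG00000047898.7 at chr9:114490316-114504916 on the minus strand, where no other annotated gene overlaps it. It was at 191, 217 and 205 TPM in GFPlo, 164, 185 and 170 in GFPmed, and 56.3, 67.6 and 57.5 in GFPhi, from 724 to 3093 reads per sample. The GFPhi samples lay apart from all others, and the GFPmed samples lay just under the GFPlo samples without overlap. The fall from GFPlo to GFPhi was 3.38-fold, or -1.74 on the log2 scale (SE 0.09, 95% interval -1.95 to -1.53, limma adjusted p = 9.2e-05).

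Between GFPmed and GFPhi Ccr4 differed by -1.50 (SE 0.09, limma adjusted p = 0.00048), and between GFPlo and GFPmed by -0.24 (95% interval -0.45 to -0.03, limma adjusted p = 0.99). Its trend was -0.87 log2 units per step, with the smallest exact permutation p possible here, 0.0012. By size of fall it was 41st of the 124 genes called lower and 4th of the 12 with a mean of at least 100 TPM. Of 11 tested neighbours within 250 kb, 0 were called in either direction.

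Most of the fall of Ccr9 and Ccr4 lay between GFPmed and GFPhi. On the log2 scale, 19.6% of the difference of Ccr9 between GFPlo and GFPhi was present in GFPmed, and 13.7% of that of Ccr4. Over the 124 genes called lower the median share was 27.8%, with quartiles of 18.7% and 37.9%, so Ccr9 lay within and Ccr4 below the quartiles. The ratio of Ccr9 to Ccr4 within a sample, looked at after the values were seen and not tested, had a mean log2 of 0.61 ± 0.01 (SD, n = 3) in GFPlo, 0.39 ± 0.05 in GFPmed and 0.00 ± 0.17 in GFPhi. The deposited TPM of the pair thus went from a ratio of 1.52 to one of 1.00.

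**Figure D2:**
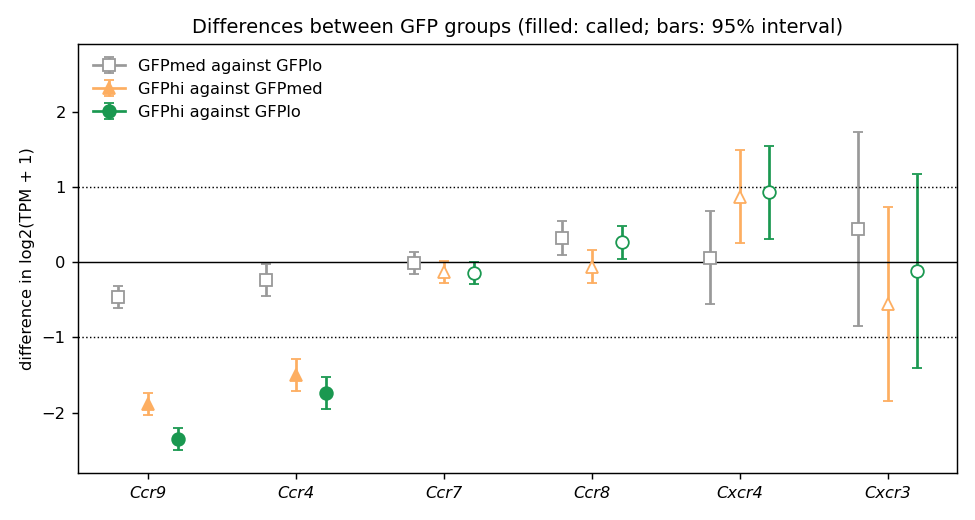
Differences in log2(TPM + 1) (y axis) of the 6 tested receptors (x axis) between pairs of GFP groups, with 95% intervals from limma; filled symbols are called and dotted lines mark a difference of 1 in either direction. Only Ccr9 and Ccr4 are filled, at -2.35 and -1.74 between GFPhi and GFPlo, and neither is called between GFPmed and GFPlo.

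Ccr7, the receptor for Ccl19 and Ccl21 that brings single-positive thymocytes into the medulla, differed by no more than 1.11-fold between the group means. Its gene is ENSMUSG00000037944.8 at chr11:99144196-99155077 on the minus strand. The GFPlo samples were at 344, 389 and 400 TPM, GFPmed at 368, 385 and 374, and GFPhi at 339, 346 and 339, from 4895 to 10059 reads. GFPhi overlapped GFPlo through a single sample, GFPlo replicate 1, and lay just under all GFPmed samples. The difference between GFPhi and GFPlo was -0.14 on the log2 scale (95% interval -0.29 to 0.00, limma adjusted p = 0.38), which leaves room for a fall of up to 0.29 and not for one of the size seen in Ccr9. Its trend was -0.07 per step (exact permutation p = 0.063). Without GFPlo replicate 1 the trend was -0.11 per step with an exact permutation p = 0.0018, and with all 9 samples rearranged within replicate numbers the exact permutation p was 0.046. Over the 12 alternatives for this trend it ran from -0.11 to -0.028 per step and the exact permutation p from 0.0018 to 0.73. With a sample left out that p reached 0.14, so the trend depends on the setting.

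Ccr8, the receptor for Ccl1 and Ccl8 that marks some single-positive thymocytes and regulatory T cells, was somewhat higher outside GFPlo. The gene is ENSMUSG00000042262.5 at chr9:120092114-120094906 on the plus strand. It was at 288, 306 and 333 TPM in GFPlo, 380, 365 and 414 in GFPmed and 345, 422 and 350 in GFPhi, from 1054 to 2668 reads. Every GFPmed and GFPhi sample was above every GFPlo sample, and GFPmed and GFPhi overlapped. The difference was 0.32 between GFPmed and GFPlo (95% interval 0.10 to 0.55, limma adjusted p = 0.77) and 0.26 between GFPhi and GFPlo (95% interval 0.04 to 0.49, limma adjusted p = 0.26), and neither passed the test. The trend was 0.13 per step (exact permutation p = 0.079), and 0.17 per step with an exact permutation p = 0.046 without GFPhi replicate 1. That was the lowest p with a sample left out, and the highest was 0.20.

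Cxcr4, the receptor for Cxcl12 that holds immature thymocytes in the cortex, was the member with the largest upward difference, on few reads. Its gene is ENSMUSG00000045382.6 at chr1:128588199-128592293 on the minus strand. The GFPlo samples were at 5.04, 5.05 and 3.85 TPM with 24, 30 and 21 reads. GFPmed was at 6.44, 3.18 and 5.45 TPM with 59, 18 and 26 reads, and GFPhi at 9.91, 7.76 and 11.8 TPM with 76, 52 and 72 reads. All GFPhi samples were above all others, and GFPmed overlapped GFPlo.

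The mean of Cxcr4 was 2.11-fold higher in GFPhi than in GFPlo, 0.93 on the log2 scale (SE 0.27, 95% interval 0.31 to 1.55). It did not pass either threshold (limma adjusted p = 0.13), and under the 22 alternatives the difference ran from 0.80 to 1.14 and the adjusted p from 0.064 to 0.35. The exact permutation test of its trend, 0.46 log2 units per step, gave p = 0.015. That p is unadjusted, and 9 such trends were tested, 7 for the receptors and 2 for the ratios given further on.

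Cxcr3, the receptor for Cxcl9 and Cxcl10 of effector T cells, and Cxcr5, the receptor for Cxcl13 of follicular T cells and B cells, were close to the floor. Cxcr3 (ENSMUSG00000050232.6, chrX:101731535-101734269, minus strand) had 12, 4 and 3 reads in GFPlo, 26, 3 and 12 in GFPmed and 16, 4 and 3 in GFPhi, that is 0.654 to 3.78 TPM. Replicate 1 of each group and GFPmed replicate 3 were high and the other 5 samples low, so the spread lay within the groups. Its difference between GFPhi and GFPlo was -0.12 (95% interval -1.41 to 1.17, limma adjusted p = 0.97), and the sign turned to positive without GFPlo replicate 1 (0.30), without GFPhi replicate 2 (0.04) or without GFPhi replicate 3 (0.10).

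Cxcr5 (ENSMUSG00000047880.15, chr9:44511787-44561877, minus strand) had 7, 8 and 9 reads in GFPlo, 13, 7 and 3 in GFPmed and 18, 13 and 15 in GFPhi. In TPM the groups were at 0.200 to 0.245, 0.0932 to 0.211 and 0.288 to 0.364, and GFPhi did not overlap either. Cxcr5 did not reach 1 TPM in any sample and was not tested in the main fit. Without the filter the difference between GFPhi and GFPlo was 0.13 on the log2(TPM + 1) scale, which compresses values this low, with a limma adjusted p = 0.52. Its trend was 0.06 per step (exact permutation p = 0.13). With a sample left out the exact permutation p, unadjusted, ran from 0.046, without GFPmed replicate 3, to 0.31. Its exons share 110 bases with those of Bcl9l on the opposite strand.

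To judge what such levels mean in these libraries, TPM were recomputed on exonic length and set beside 1530 olfactory and vomeronasal receptor genes, which sensory neurons express and thymocytes are not known to use. In each library the median of those genes was 0.586 to 1.90 and their 95th percentile 6.35 to 11.4 TPM on exonic length. Cxcr4 lay under that 95th percentile in all 6 GFPlo and GFPmed samples, at 3.66 to 7.38, and above it in all 3 GFPhi samples, at 8.78 to 13.6. Cxcr3, at 0.594 to 3.40, and Cxcr5, at 0.394 to 1.54, were under it in all 9 samples. Reads on these sensory genes were 4856, 3661 and 4786 RPM (reads scaled to a common total) in replicate 1 of GFPlo, GFPmed and GFPhi. The other samples were at 2247 to 3287 RPM. Cxcr3 was high in those 3 replicate 1 libraries and also in GFPmed replicate 3, which had 3287 RPM on the sensory genes. The part of this background in the values of Cxcr3 was not tested.

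**Figure D3:**
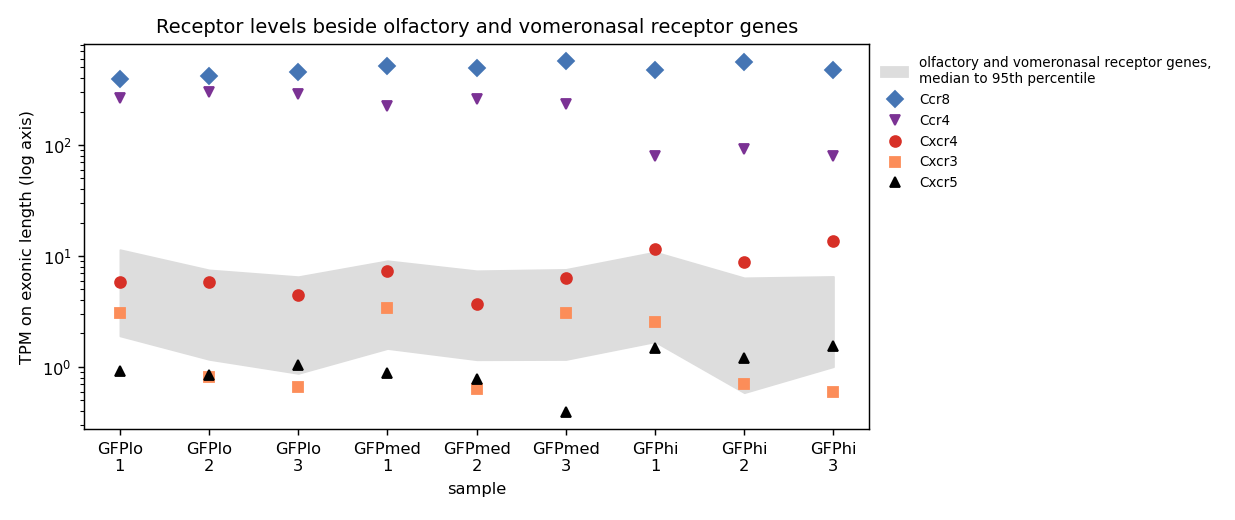
TPM on exonic length (y axis, log scale) of 5 receptors in each of the 9 samples (x axis), with the range from the median to the 95th percentile of 1530 olfactory and vomeronasal receptor genes shaded. Ccr8 and Ccr4 lie far above the shading in every sample, Cxcr4 leaves it in the 3 GFPhi samples at 8.78 to 13.6, and Cxcr3 and Cxcr5 lie in or below it.

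The order of the receptors was set on RPKM, reads scaled by kilobase of gene length and by the library's reads on genes, since deposited TPM cannot compare genes. On the length of all annotated exons, the GFPlo means were 359 ± 27.0 RPKM for Ccr7, 143 ± 8.11 for Ccr9, 127 ± 8.63 for Ccr8 and 85.7 ± 5.46 for Ccr4 (SD, n = 3). The samples of Ccr9 and Ccr8 overlapped there. In GFPhi the order was Ccr7 with 328 ± 9.68, Ccr8 with 154 ± 12.1, Ccr9 with 28.1 ± 1.54 and Ccr4 with 25.6 ± 1.65 RPKM, and the last pair overlapped on this length. Cxcr4 was at 1.62 ± 0.25 RPKM in GFPlo and 3.47 ± 0.79 in GFPhi, and Cxcr3 and Cxcr5 were below 1.01 RPKM in every sample and overlapped each other in each group.

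The places of Ccr9 and Ccr4 depend on the length used. The exons of Ccr9 add up to 10260 bases because long isoforms are annotated, while its 5 basic transcripts average 3590 bases. On that mean length Ccr9 was at 409 ± 23.2 RPKM in GFPlo, above Ccr7 at 359 ± 27.0, and at 80.2 ± 4.40 in GFPhi, still below Ccr8 at 154 ± 12.1. Ccr7 was thus above Ccr9 in GFPhi on either length, and in GFPlo on exonic length only. Ccr4, whose exons add up to 3093 bases and whose basic transcripts average 2094, was at 127 ± 8.07 RPKM in GFPlo on the mean length, where its samples overlapped those of Ccr8. In GFPhi it was at 37.8 ± 2.43 RPKM, below all samples of Ccr9.

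In reads, which are not corrected for length, the largest share of the 7 receptors passed from Ccr9 to Ccr7. The 7 receptors together took 2596 ± 153 RPM in GFPlo, 2174 ± 82.2 in GFPmed and 1206 ± 17.9 in GFPhi (SD, n = 3). Of these reads Ccr9 took 56.5% ± 0.82 in GFPlo, 48.7% ± 0.93 in GFPmed and 23.9% ± 1.06 in GFPhi. Ccr7 took 27.3% ± 0.80, 32.3% ± 0.31 and 53.8% ± 0.79 of them, and Ccr8 took 5.75% ± 0.29 in GFPlo and 15.0% ± 1.37 in GFPhi. Shares of a common total also move when another member falls, and the TPM of Ccr7 and Ccr8 themselves did not pass the test. Longer transcripts also take more reads. On exonic length Ccr7 was above Ccr9 in GFPlo already, at 359 and 143 RPKM, so the change of the leading receptor depends on the length used.

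The ratio of the medullary receptor Ccr7 to a cortical receptor within each sample was compared next, since it needs no scaling between samples. The log2 ratio of Ccr7 to Ccr9 was 0.28 ± 0.06 in GFPlo, 0.73 ± 0.04 in GFPmed and 2.50 ± 0.05 in GFPhi (SD, n = 3), with no overlap between groups. Its trend of 1.11 per step had the smallest exact permutation p possible, 0.0012. As Ccr7 itself moved by -0.07 per step and Ccr9 by -1.17, this trend mostly repeats that of Ccr9 and is no separate result. Ccr4, also named above for the medulla, fell with Ccr9, by -0.87 per step. The log2 ratio of Ccr7 to Cxcr4 went the other way, from 6.35 ± 0.31 in GFPlo and 6.28 ± 0.56 in GFPmed to 5.14 ± 0.32 in GFPhi, a trend of -0.61 per step (exact permutation p = 0.020). GFPmed overlapped GFPlo and GFPhi did not overlap either group. Without GFPhi replicate 3 that trend was -0.50 per step with an exact permutation p = 0.057.

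**Figure D4:**
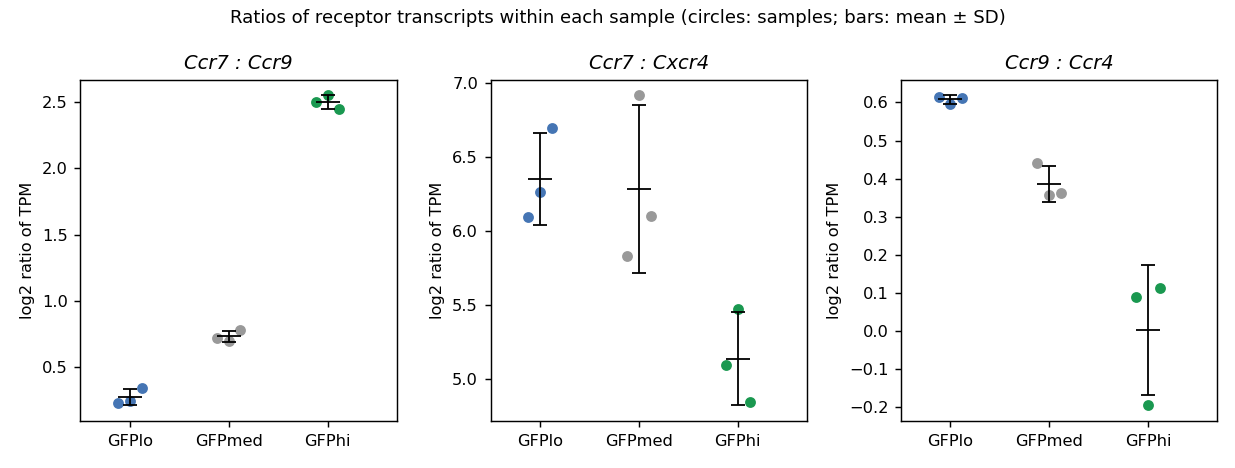
Log2 ratios of deposited TPM (y axes) of Ccr7 to Ccr9, Ccr7 to Cxcr4 and Ccr9 to Ccr4 within each sample, by GFP group (x axes); circles are samples and bars the mean ± SD. From GFPlo to GFPhi the first ratio goes from 0.28 to 2.50, the second from 6.35 to 5.14 and the third from 0.61 to 0.00.

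The genes most like Ccr9 and Ccr4 over the 9 samples were sought among 9530 other genes with a mean of at least 5 TPM, by Pearson's r of log2(TPM + 1). These r describe samples that share 3 groups and carry no test. For Ccr9 they were Il7r, the interleukin-7 receptor chain (r = 0.996), Id2, an inhibitor of E proteins (r = 0.995), and Il17rb, a receptor chain for interleukin-25 (r = 0.994). For Ccr4 they were Id2 (r = 0.998), Arhgef6, an exchange factor for Rac and Cdc42 (r = 0.994), and Il7r (r = 0.994). Ccr4 was 5th among the genes most like Ccr9 and Ccr9 was 6th among those most like Ccr4, with r = 0.993 between them. Il7r went from a mean of 199.9 TPM in GFPlo to 171 in GFPmed and 56.1 in GFPhi, and Id2 from 1504 to 1038 and 239.

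The rest of the chemokine receptor family was low and none was called. Of 17 other receptors, 11 were tested and 0 passed in any of the 3 comparisons, with a median difference between GFPhi and GFPlo of -0.22 against -0.09 over all genes. The other receptors highest in deposited TPM were Ccr1l1, at 10.5 to 23.6 TPM from 16 to 41 reads, and Ccrl2, an atypical receptor, at 6.07 to 14.1 TPM from 21 to 64 reads. Ackr4 had the most reads of the 17, with 113 to 253 per sample, at 6.75 to 12.8 TPM on exonic length. It differed by -0.22 between GFPhi and GFPlo (limma adjusted p = 0.79). Ccr10, Cxcr6 and Ccr6 were picked out after their values were seen. Ccr10 had 0 to 6 reads in the 6 GFPlo and GFPmed samples and 10, 7 and 14 in GFPhi (1.05 on the log2 scale, 95% interval 0.28 to 1.82, limma adjusted p = 0.17). Cxcr6 had 8 to 15 reads in the 6 GFPlo and GFPmed samples and 31, 29 and 30 in GFPhi (0.75 on the log2 scale, 95% interval 0.27 to 1.24, limma adjusted p = 0.12), and Ccr6 had 3 to 11 reads in those 6 samples and 34, 24 and 21 in GFPhi, below the filter.

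Ligands of the receptors were not called either. Of 14 such chemokines 8 were analysed here and 6 tested, with 0 called in any comparison and a median of -0.12 between GFPhi and GFPlo. Those named for their mean deposited TPM, which does not rank genes by transcript number, were Cxcl10, at 4.09 to 16.6 TPM, and Ccl25, at 7.56 to 9.88 TPM, both without a difference between GFPhi and GFPlo larger than the spread (limma adjusted p = 0.99 and 0.81). Among 26 other chemokines, 16 were tested and a single gene was called. Xcl1, which attracts cross-presenting dendritic cells, had 1, 0 and 6 reads in GFPlo, 5, 2 and 3 in GFPmed and 55, 37 and 30 in GFPhi. It was higher in GFPhi than in GFPlo by 2.26 (SE 0.29, limma adjusted p = 0.0059) and than in GFPmed by 2.13 (SE 0.29, limma adjusted p = 0.015).

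None of the tested genes that couple these receptors to their signal or switch it off was called. Of 16 G protein subunits 10 were tested and 0 called in any comparison, with a median of -0.01 between GFPhi and GFPlo. Gnai2, the main inhibitory alpha subunit of lymphocytes, was at 350 to 440 TPM in all samples (0.04, 95% interval -0.17 to 0.26), and Gnb2 at 138 to 233 TPM. Of 7 receptor kinases and arrestins, which desensitize the receptors, 5 were tested and 0 called, with a median of 0.21, and Grk6 and Grk2, named for their deposited TPM, differed by 0.22 (95% interval -0.09 to 0.53) and 0.08 (-0.60 to 0.77).

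All 26 genes of the migration machinery were tested and 0 reached a difference of 1, with a median of -0.12 between GFPhi and GFPlo. By adjusted p alone, 2 were higher and 5 lower, where 730 and 464 of all 30693 genes were. Rac2, a GTPase of leukocytes that acts on actin, was higher by 0.46 (SE 0.07, limma adjusted p = 0.015), and Prex1, an exchange factor for Rac that acts downstream of G protein beta-gamma subunits, by 0.52 (SE 0.08, limma adjusted p = 0.012). The lower genes were Rac1, Rhoh, Pik3r5, Coro1a and Rap1a, by 0.36 to 0.59. The smallest and largest of these were Coro1a, an actin regulator needed for thymocyte egress, at -0.36 (SE 0.07, limma adjusted p = 0.034), and Rap1a, a GTPase that activates integrins, at -0.59 (SE 0.10, limma adjusted p = 0.016).

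Most markers of maturation rose with GFP, while Ccr9 and Ccr4 fell. Of 6 markers of late single-positive thymocytes, 4 were called higher and 1 lower between GFPhi and GFPlo, with a median of 1.94. Klf2, a transcription factor of the exit program, was at 77.5 to 96.0 TPM in GFPlo and 506 to 586 in GFPhi, higher by 2.60 (SE 0.12, limma adjusted p = 5.4e-05). S1pr1, the sphingosine-1-phosphate receptor that takes thymocytes out of the thymus, was at 6.35 to 9.39 TPM in GFPlo, 18.2 to 23.6 in GFPmed and 212 to 231 in GFPhi, higher by 4.70 (SE 0.15, limma adjusted p = 9.9e-06). Slfn1 and Ms4a4b were also called higher. Il7r, on the same list, went the other way, by -1.81 (SE 0.09, limma adjusted p = 6.5e-05).

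Cd69, an antagonist of S1pr1 at the cell surface and part of the gate, was at 324 to 420 TPM in GFPlo and 184 to 240 in GFPhi, a difference of -0.79 (SE 0.13, limma adjusted p = 0.014). It was the single gene of the 9 SP4 markers that passed the adjusted p between GFPhi and GFPlo, and 0 of the 9 were called. Of the genes behind the negative gates, Il2ra, which encodes CD25, was called higher, at 0.606 to 0.741 TPM in GFPlo and 8.11 to 11.2 in GFPhi (2.68, SE 0.20, limma adjusted p = 0.00049). Cd8b1 differed by -0.79 (SE 0.11, limma adjusted p = 0.0065), and Cd8a is given with the double-positive markers.

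Some markers of double-positive thymocytes, the preceding stage, which also uses Ccr9, fell alongside it. On exonic length Cd8b1 was at 106 to 108 TPM and Dntt at 75.9 to 91.1 in GFPlo. The deposited TPM of the 7 markers analysed here summed to 58.8 to 61.8 in GFPlo, 50.5 to 53.5 in GFPmed and 27.9 to 36.0 in GFPhi. That sum mostly follows Cd8a, Cd8b1 and Dntt. Of 6 tested, 0 were called higher and 2 lower between GFPhi and GFPlo. These were Cd8a, at 14.1 to 18.8 TPM in GFPlo and 5.68 to 8.47 in GFPhi (-1.12, SE 0.18, limma adjusted p = 0.016), and Dntt, terminal transferase, at 12.2 to 14.6 and 3.70 to 5.03 TPM (-1.43, SE 0.16, limma adjusted p = 0.0026). No marker of the list was at 0 in all 9 samples. In bulk RNA, fewer cells of a type and less RNA per cell cannot be told apart, and the part of such cells in the fall of Ccr9 was not tested.

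Markers of regulatory T cells and their precursors, which use Ccr4 and Ccr8 in the periphery, went the opposite way to Ccr4. All 6 were called higher between GFPhi and GFPlo, with a median of 2.57, and their sum was 245 to 268 TPM in GFPlo, 550 to 687 in GFPmed and 1468 to 1591 in GFPhi. Foxp3, their lineage factor, was at 6.57 to 7.04 TPM in GFPlo, 5.69 to 7.27 in GFPmed and 14.0 to 18.4 in GFPhi (1.10, SE 0.16, limma adjusted p = 0.0099). Tnfrsf4, which encodes OX40, was at 64.5 to 68.3, 193 to 257 and 712 to 727 TPM. Most of the sum came from Tnfrsf4 and Tnfrsf18, with means of 718 and 716 TPM in GFPhi, where Ikzf4 was next at 40.5. Of the 6 markers only these 2 were called higher between GFPmed and GFPlo, so the sum is no measure of the number of such cells. The part of regulatory T cells and their precursors in the receptor values was not tested.

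Apart from Cst3, markers of other cells were at 24.7 deposited TPM or less in every sample, and 2 of them were called. Of 8 B cell markers 5 were tested and 0 called, and their sum was 24.3 to 35.5 TPM in GFPlo and 14.2 to 36.7 in GFPhi. Of 10 myeloid and dendritic markers 6 were tested and 0 called, with a sum of 87.4 to 111 TPM in GFPlo and 95.2 to 105 in GFPhi. Most of that sum was Cst3, at 57.1 to 84.9 TPM in GFPlo and 68.9 to 82.8 in GFPhi. The 6 markers of NKT and gamma-delta T cells, highest in Trdc and Nkg7, summed to 39.5 to 47.3 TPM in GFPlo and 35.1 to 42.4 in GFPhi. Of these 4 were tested and Sox13 was called lower, from a mean of 9.73 TPM in GFPlo to 1.03 to 2.48 TPM in GFPhi (-1.88, SE 0.30, limma adjusted p = 0.014). Of 7 thymic epithelial markers 4 were tested and Epcam was called higher, at 2.15 to 3.26 and 8.26 to 9.08 TPM (1.38, SE 0.21, limma adjusted p = 0.012). Ly75, on the same list, passed the adjusted p but not the limit on the difference (0.88, SE 0.18, limma adjusted p = 0.039). The part of each in the receptor values was not tested.

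**Figure D5:**
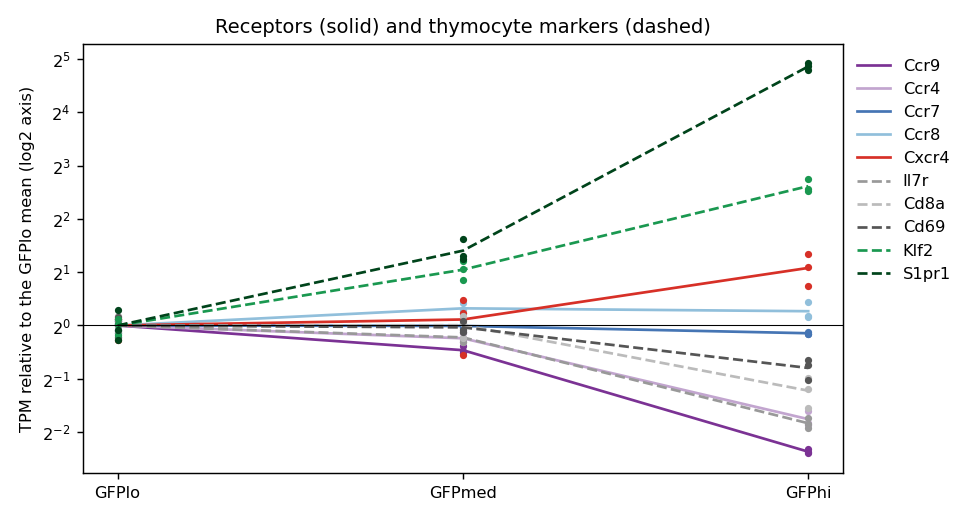
TPM relative to the GFPlo mean (y axis, log2 scale) of 5 receptors (solid lines) and 5 thymocyte markers (dashed lines) in GFPlo, GFPmed and GFPhi (x axis); lines join group means and dots are the samples. Ccr9 and Ccr4 run with Il7r, which fell 3.56-fold from GFPlo to GFPhi, while Klf2 rose 6.12-fold and S1pr1 rose 29.0-fold and Ccr7 was at 0.904 of its GFPlo mean.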

How the data were processed

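Bulk RNA-seq of 9 samples of sorted SP4 thymocytes, 3 per GFP group, was analysed. Groups and replicate numbers come from the labels. Libraries were made with SMART-seq v4 and NexteraXT. Per the study's methods and the submitters' processing notes the authors trimmed the reads, mapped them to GRCm38 with STAR 2.7.11b, dropped identical duplicates, counted over GENCODE genes and deposited TPM. The authors also deposited a mean normalized signal per group (counts over size factors of DESeq2 1.34.0), used here only to solve for reads, and their own fold changes, adjusted p-values and calls, which were not used. Of the sample columns 0 were left unused.

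Reads were solved for 41578 of 41978 genes, within 7465552 to 14943774 per sample. Of the 34349 to 38828 values checked per sample, 100% came out whole, and the highest values were not part of that check. PCR duplicates without molecular identifiers mean that reads carry counting error and more. The divisor in the TPM was a gene's mean transcript span, introns included, for 97.0% of 20121 protein-coding genes (tolerance 0.1%).

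The main test was limma 3.58.1 (R 4.3.3) on log2(TPM + 1) with all 9 samples in 1 model and eBayes with a trend, for 30693 genes reaching 1 TPM in 3 or more samples. Fold changes on this scale understate those of low genes. A call needed a log2 fold change of 1 or more in either direction and an adjusted p not above 0.05. Trends and ratios used exact two-sided permutation tests over samples, not adjusted over the receptors. The fit was tested on simulated data. Biological replicates are stated, and whether same-numbered samples shared a mouse is not.

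Alternatives were leaving out each sample, the replicate block, fitting 2 groups at a time, no trend in eBayes, calls without a fold limit, quantile normalization, median-of-ratios scaling, a filter at 5 TPM or none, a pseudocount of 0.1, and limma-voom on reads with library totals or size factors. A further 2 were chosen after seeing the data, TPM on exonic length and limma-voom on genes with 50 reads or more in all. Named are the 7 receptors, the check gene Nr4a1, called genes of the other lists (or else the 2 with the highest mean TPM), and the 3 genes most like each called receptor. Receptors and lists were chosen with earlier results of these data known. Exonic lengths and positions come from GENCODE vM21 on GRCm38, and sequences from RefSeq GRCm38.p6, which had windows for 5 of the 7 receptors.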

Additional observations from a re-analysis of the deposited data

How the results depend on the processing

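The numbers of receptors called, 2 lower and 0 higher between GFPhi and GFPlo and between GFPhi and GFPmed and 0 between GFPmed and GFPlo, were the same under all 22 alternatives. Between GFPhi and GFPlo, Ccr9 ran from -2.39 to -2.26 and Ccr4 from -1.82 to -1.65 on the log2 scale. Cxcr3 turned positive between GFPhi and GFPlo under quantile normalization (0.040) and limma-voom on genes with at least 50 reads (0.022), and ran from -0.49 to 0.30 with a sample left out, its trend from -0.21 to 0.098. Cxcr5 was 0.66 in that voom fit and 0.31 on exonic length, -0.36 and -0.21 between GFPmed and GFPlo, and 1.01 and 0.52 between GFPhi and GFPmed. With a sample left out its trend ran from 0.046 to 0.081 per step and the exact permutation p from 0.046 to 0.31. For Ccr7 between GFPmed and GFPlo the sign turned under median-of-ratios scaling and under voom with size factors and with at least 50 reads (0.020, 0.018 and 0.018), and ran from -0.071 to 0.037 with a sample left out. Ccr8 between GFPhi and GFPmed turned to 0.0024 under median-of-ratios scaling and to 0.024 and 0.025 in those voom fits. Cxcr4 between GFPmed and GFPlo ran from -0.11 to 0.30 with a sample left out. With a sample left out, trends ran from -0.11 to -0.056 for Ccr7 and 0.095 to 0.17 for Ccr8, and the Ccr7 to Cxcr4 ratio from -0.71 to -0.50. The causes were not tested. Over all genes, calls between GFPhi and GFPlo were 387 higher and 124 lower, 321 and 69 under median-of-ratios scaling, 285 and 81 with only 2 groups in the fit, 587 and 129 in voom on genes with at least 50 reads, 730 and 464 without a limit on fold change, and 252 to 360 and 80 to 170 with a sample left out (252 higher without GFPhi replicate 3, 80 lower without GFPlo replicate 2). Between GFPhi and GFPmed they were 166 and 46, with 86 and 16 under median-of-ratios scaling and 311 and 60 in that voom fit, and between GFPmed and GFPlo 17 and 1, with 5 and 0 under median-of-ratios scaling. Leaving out a sample gave 79 to 160 higher and 25 to 59 lower between GFPhi and GFPmed. The higher count was 105 and 79 without GFPhi replicates 2 and 3, and 103, 93 and 104 without GFPmed replicates 1, 2 and 3 (25, 27 and 28 lower). Between GFPmed and GFPlo it gave 0 to 3 lower and 2 to 16 higher, with 4 and 5 without GFPlo replicates 2 and 3 and 4, 8 and 2 without GFPmed replicates 1, 2 and 3. Cxcr4 rests on 18 to 76 reads a sample and Cxcr3 and Cxcr5 on 3 to 26, and how far depth limits them was not tested.

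Deviations of same-numbered samples correlated at 0.012 to 0.22 over 9 pairs (mean r = 0.061, the highest between replicate 1 of GFPlo and GFPhi). The mean over 18 pairs of unlike number was -0.030. Deviations were taken from group means, which ties that value to the mean of the same-numbered pairs, so it is no separate comparison. All 9 same-numbered pairs were above 0 and 8 of them under 0.1, which does not settle whether the numbers pair the samples. The main fit leaves them unpaired. With the replicate block the trend of Ccr7, -0.071 per step, gave an exact permutation p = 0.046 in place of 0.063, and no other call on a receptor or ratio changed.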
